A study of Cricetulus griseus with 6 samples.

Results

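Genes of the mitochondrial ribosome were examined in CHO-T cells in which the transcription factor gene *Xbp1* had been silenced. The genes were chosen by symbol, as rows whose symbol begins with *Mrpl* or *Mrps* followed by a number and whose mean FPKM over the 6 libraries was at least 0.1. FPKM counts sequenced fragments relative to the length of the transcript and the depth of the library, so levels can be compared between genes per unit of length. Of 27873 rows in each file, 77 had such a symbol and 76 passed the level limit, 48 named for the large subunit (*Mrpl*) and 28 for the small subunit (*Mrps*). The row left out was *Mrps18a*, listed at 0.175 FPKM in control replicate 1 and at 0 in the other 5 libraries.

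CHO-T cells are Chinese hamster ovary (CHO) cells that were infected with a retrovirus carrying the cDNA of mouse T-cadherin (*Cdh13*) and selected with puromycin, and the libraries of both conditions carry this transgene. Cells were transfected with negative control siRNA (n = 3 libraries) or with *Xbp1* siRNA (n = 3 libraries), harvested 48 h later, and sequenced as stranded mRNA libraries. The study used the sequencing to look for the pathway by which active IRE1α, the stress sensor upstream of *Xbp1*, limits the release of extracellular vesicles. The study's methods speak in general terms of independent experiments, but neither they nor the labels say of these libraries whether the 3 of a condition came from separate cultures. The p-values given here therefore measure only the spread between these libraries, which may be technical.

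The mitochondrial ribosome translates the few mRNAs encoded by mitochondrial DNA, which specify core subunits of the respiratory chain and of ATP synthase. Its RNAs come from the mitochondrial genome, whereas its proteins are encoded in the nucleus, made in the cytosol and imported. The large subunit holds the peptidyl transferase centre and the exit tunnel, and the small subunit binds the mRNA and decodes it. Part of the proteins have counterparts in the bacterial ribosome and the others were gained by mitochondria. XBP1 is a transcription factor of the unfolded protein response of the endoplasmic reticulum and is best known for genes of secretion and protein folding.

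The silenced gene was checked first. *Xbp1* had 26.0, 26.2 and 28.4 FPKM in the control libraries and 2.18, 2.11 and 1.39 FPKM after silencing. The mean was 7.05% of the control mean (log2 fold change −3.78, adjusted p = 5.61e-06, limma). The 6 columns summed to between 646651 and 666267 FPKM with control siRNA and to between 593487 and 600986 FPKM with *Xbp1* siRNA. The steps of weakly expressed genes placed the read depth of the libraries between 94.0% and 116% of that of control replicate 1. The labels give the tissue as ovary. Of 11 markers of granulosa cells, theca cells and oocytes, 8 were matched by symbol, and *Fshr*, *Lhcgr* and *Zp3* were listed at 0 in each library while *Amh*, *Inha*, *Star*, *Gdf9* and *Ddx4* did not exceed 4.10 FPKM. Of 4 mesenchymal markers, *Col1a1* and *Col1a2* were listed at 0, and the summed level of the list, most of it from *Vim*, was 393 to 416 FPKM with control siRNA and 313 to 341 FPKM with *Xbp1* siRNA. Of 4 epithelial markers, 3 were matched, *Krt18* was at 0, and the sum was 1.83 to 2.16 FPKM with control siRNA and 4.59 to 5.79 FPKM with *Xbp1* siRNA, mostly from *Epcam*. Of 3 leukocyte markers, *Ptprc* and *Cd3e* were at 0, and *Cd68* had 5.18 to 6.15 FPKM with control siRNA and 6.99 to 8.80 FPKM with *Xbp1* siRNA. In bulk RNA, fewer cells of a type and less RNA per cell cannot be told apart. The part of these shifts in the results below was not tested.

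Silencing of *Xbp1* left most mitochondrial ribosomal protein genes close to their control level. The fold change was under 1.2-fold in either direction for 62 of the 76 genes, and the median log2 fold change was −0.089, against 0.0063 over all 14361 rows tested, and it was −0.052 without control replicate 1. A gene was taken to have passed the test at an adjusted p under 0.05 (limma on log2(FPKM + 0.1), a scale that understates changes of weakly expressed genes, with Benjamini-Hochberg adjustment over all rows). Of the 76 genes, 10 rose and 25 fell by this test, against 20.2% of all rows higher and 20.2% lower. A single gene, *Mrpl48*, also changed by at least 1 on the log2 scale, and it fell. Over all rows, 2.5% were lower and 2.69% higher by that stricter rule, and among rows of similar level, defined next, 2.21% and 0.439%. Thus *Mrpl48* stood apart from the other members in size, and *Mrps25* came next.

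The share of members that fell was close to what genes of similar level showed. Of 5012 rows with a mean FPKM of 20 to 500, a range that held 74 of the 76 members, 32.8% fell and 23.7% rose. Their median log2 fold change was −0.036, and 3118 of them changed by under 1.2-fold, as did 6980 of all 14361 rows. Among the members 32.9% fell and 13.2% rose. Their libraries did not overlap between the conditions for 28 genes with lower and 13 genes with higher values, which is 36.8% and 17.1%, while 37.6% and 27.5% of rows in that range and 25.8% and 26.1% of all rows did so. The number of genes that fell is therefore not read as a property of the mitochondrial ribosome, and the difference in the share of genes that rose was not tested.

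**Figure D1:**
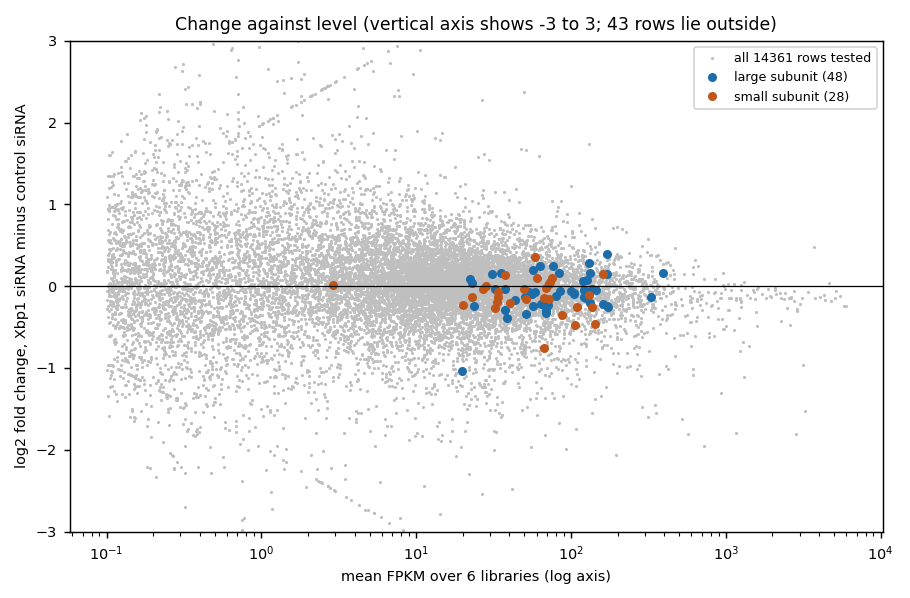
Log2 fold change (vertical axis, *Xbp1* siRNA minus control siRNA) of each row tested against its mean FPKM over the 6 libraries (horizontal log axis), with the 48 large subunit genes in blue and the 28 small subunit genes in orange. Members lie between 2.89 and 396 FPKM and mostly near 0, with *Mrpl48* and *Mrps25* lowest; rows beyond −3 or 3 are not shown.

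These directions depend on how the libraries are scaled. The FPKM sums were lower with *Xbp1* siRNA, and scaling each library to the same sum, an alternative chosen after this was seen, moved the median of all rows from 0.0063 to 0.14. The median of the members then was 0.046, still below that of all rows, with 21 genes higher and 12 lower. After quantile normalization the median was −0.021, with 13 genes higher and 19 lower. Values below use the deposited scaling.

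Members differed widely in level. In the large subunit, *Mrpl13* was most abundant, with 385, 380 and 358 FPKM in the control libraries and 414, 419 and 420 FPKM with *Xbp1* siRNA. *Mrpl12*, whose protein forms the flexible stalk that recruits translation factors, had 380, 334 and 318 FPKM against 313, 297 and 327 FPKM, and its conditions overlapped. *Mrpl57* ranked next with a mean of 173 FPKM over the 6 libraries. At the lower end stood *Mrpl48* with 19.8 FPKM, *Mrpl15* with 22.4 FPKM and *Mrpl58*, which encodes a peptidyl-tRNA hydrolase that frees stalled ribosomes, with 23.1 FPKM. In the small subunit the highest means were those of *Mrps21* with 161 FPKM, *Mrps18b* with 144 FPKM and *Mrps17* with 138 FPKM. The lowest were those of *Mrps6* with 2.89 FPKM, *Mrps2* with 20.1 FPKM and *Mrps28* with 22.8 FPKM. *Mrps6* was thus far below the other members, with 2.59 to 3.35 FPKM in the 6 libraries, although its protein has a counterpart in the bacterial small subunit. Within a condition the spread was small, with a median coefficient of variation over members of 4.89% for control siRNA and 4.19% for *Xbp1* siRNA.

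**Figure D2:**
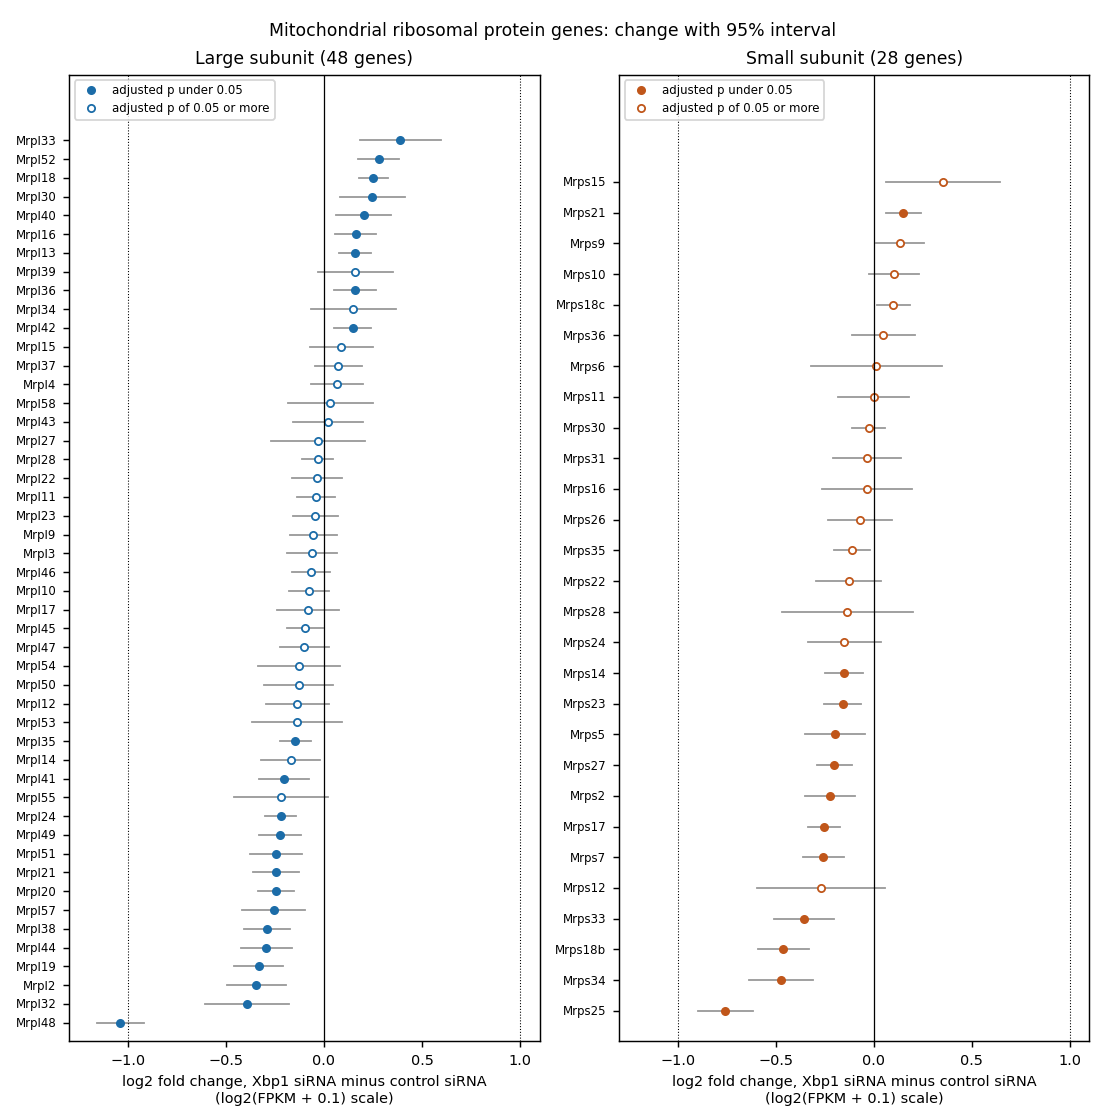
Log2 fold change (horizontal axis, *Xbp1* siRNA minus control siRNA, on the log2(FPKM + 0.1) scale) of the 48 large subunit genes (left) and the 28 small subunit genes (right), ordered by size, with the 95% interval from limma as a line. Filled points have an adjusted p under 0.05 and dotted lines mark −1 and 1; *Mrpl48* at −1.04 lies past the left one, and *Mrps25* at −0.76 is the lowest of the small subunit.

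*Mrpl48*, a protein of the central protuberance at the top of the large subunit, fell most. It had 27.0, 27.2 and 25.8 FPKM with control siRNA and 13.3, 12.7 and 12.8 FPKM with *Xbp1* siRNA. The conditions were far apart, and each library with *Xbp1* siRNA lay near 48.5% of the control mean. The log2 fold change was −1.04 (standard error 0.051, 95% interval −1.16 to −0.92, adjusted p = 8.18e-06, limma). It lay between −1.06 and −1.02 on leaving out single libraries, but it did not reach a size of 1 with a pseudocount of 1 (−0.99) or with equal FPKM sums (−0.90).

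*Mrps25*, a protein of the small subunit that has no bacterial counterpart, had 85.5, 85.7 and 79.6 FPKM with control siRNA. With *Xbp1* siRNA it had 49.2, 53.2 and 46.1 FPKM, below the control libraries in each. The mean was 59.2% of the control mean (log2 fold change −0.76, standard error 0.059, adjusted p = 6.73e-05, limma). *Mrps34*, which is needed for a stable small subunit, had 131, 128 and 110 FPKM with control siRNA and 91.2, 84.4 and 89.4 FPKM with *Xbp1* siRNA. Its lowest control library stood apart from the other two, and still above every library with *Xbp1* siRNA (log2 fold change −0.47, standard error 0.070, adjusted p = 0.00145, limma). *Mrps33*, another small subunit protein gained by mitochondria, went from 98.4, 99.6 and 95.5 FPKM to 84.6, 70.3 and 75.1 FPKM (log2 fold change −0.36, adjusted p = 0.00412, limma). *Mrps7* and *Mrps17*, both with a bacterial counterpart, fell to 83.7% and 83.9% of the control mean, and *Mrps2* to 85.5%. For each of these 3 genes the libraries with *Xbp1* siRNA lay below all control libraries.

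**Figure D3:**
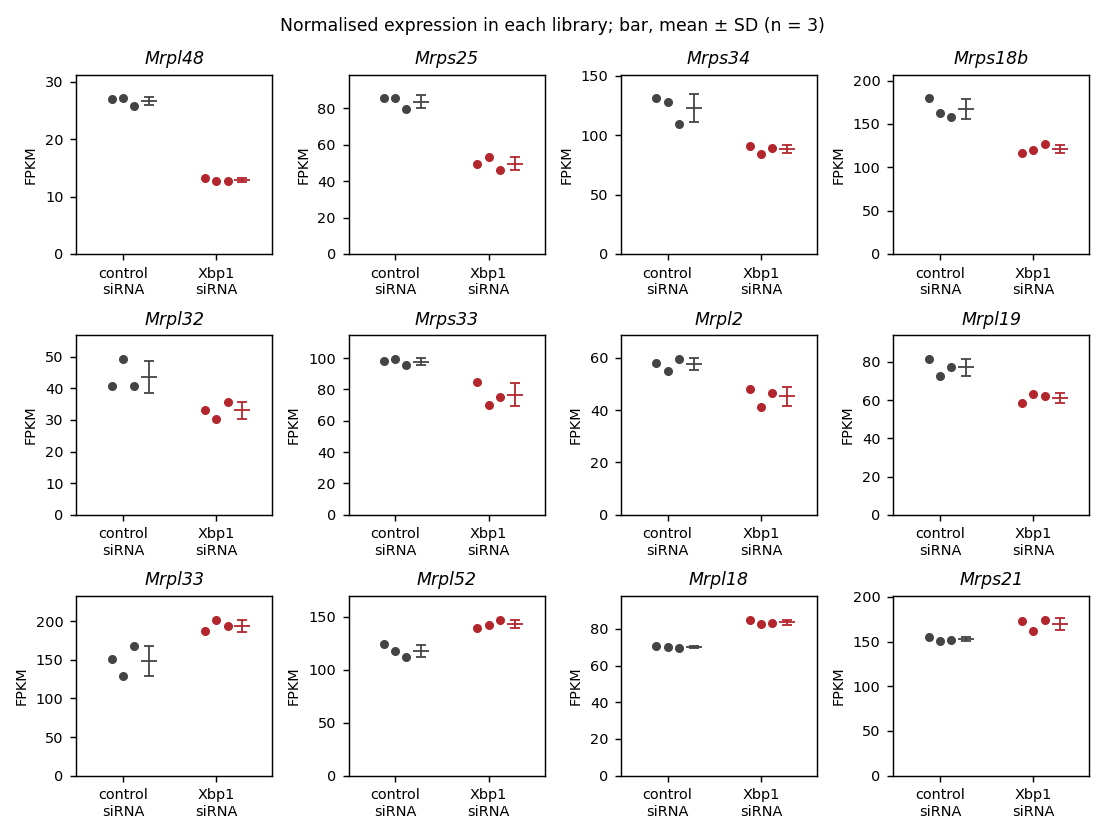
FPKM (vertical axes, from 0) in each library for 12 members that passed the test, with control siRNA in grey and *Xbp1* siRNA in red, and the mean ± SD of 3 libraries beside the points. In the upper 2 rows, from *Mrpl48* to *Mrpl19*, the red points lie below the grey ones, and in the lower row, from *Mrpl33* to *Mrps21*, they lie above.

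In the large subunit, the genes that fell next to *Mrpl48* had smaller changes. *Mrpl32*, a small protein that is cut to its mature form by a protease of the inner membrane, had 40.6, 49.4 and 40.7 FPKM with control siRNA and 33.3, 30.3 and 35.7 FPKM with *Xbp1* siRNA. Control replicate 2 was high, and the conditions did not overlap (log2 fold change −0.39, standard error 0.092, adjusted p = 0.0119, limma). *Mrpl2*, which lies near the peptidyl transferase centre, had 58.1, 55.0 and 59.6 FPKM against 48.3, 41.4 and 46.4 FPKM (log2 fold change −0.35, adjusted p = 0.00420, limma). *Mrpl19* went from 81.6, 72.6 and 77.3 FPKM to 58.3, 63.1 and 62.2 FPKM, 79.3% of the control mean. *Mrpl44*, which carries a fold like that of ribonuclease III and lies near the exit tunnel, fell to 81.5%, and *Mrpl38*, of the central protuberance, to 81.8%. *Mrpl57*, among the most abundant members, went from 210, 182 and 173 FPKM to 158, 158 and 154 FPKM (adjusted p = 0.0197, limma). It did not pass without *Xbp1* siRNA replicate 3 (adjusted p = 0.0634, limma), after quantile normalization, without a mean-variance trend (adjusted p = 0.0653, limma) or with equal sums, and with equal sums *Mrpl32* and *Mrps2* did not pass either.

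The genes that passed as higher were all but 1 from the large subunit. This split depends on the rule. Libraries were higher without overlap for 9 large (18.8%) and 4 small subunit genes (14.3%), beside 27.5% of rows of similar level and 26.1% of all rows. *Mrpl33*, the counterpart of a small bacterial protein, had 151, 129 and 167 FPKM with control siRNA and 187, 202 and 194 FPKM with *Xbp1* siRNA. The control libraries were spread over a wider range than those with *Xbp1* siRNA, and the conditions did not overlap (log2 fold change 0.39, standard error 0.089, adjusted p = 0.0105, limma). *Mrpl52*, without a bacterial counterpart, went from 124, 117 and 112 FPKM to 139, 142 and 147 FPKM (log2 fold change 0.28, adjusted p = 0.00194, limma). *Mrpl18*, of the central protuberance, had 70.7, 70.4 and 69.6 FPKM against 85.0, 82.6 and 83.1 FPKM. Its libraries were almost alike within a condition, and its adjusted p of 6.41e-04 (limma) was the smallest among genes that rose. *Mrpl30*, *Mrpl40* and *Mrpl16* rose to 118%, 115% and 112% of the control mean, and *Mrpl13* also to 112%. *Mrps21*, the gene of the small subunit that rose, had 156, 151 and 152 FPKM with control siRNA and 173, 162 and 175 FPKM with *Xbp1* siRNA. On leaving out single libraries, 4 to 10 members passed as higher and 22 to 25 as lower. Those higher were 4 without *Xbp1* siRNA replicate 3 and 5 without control replicate 2 or without control replicate 3. *Mrpl30*, *Mrpl40* and *Mrpl16* each lost the call without *Xbp1* siRNA replicate 3 and without control replicate 3 (adjusted p from 0.0645 to 0.0978, limma), and without 1 or 2 other libraries, and *Mrps21* lost it without *Xbp1* siRNA replicate 3 (0.0559) or control replicate 2 (0.0522). These 4 genes also lost the call when limma was run without a mean-variance trend (adjusted p from 0.0625 to 0.0781), where 4 members rose in all, and *Mrpl40* lost it with the replicate number as a block (0.0663).

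A gene that did not pass is not shown to be unchanged. Of the 41 such members, 25 had a 95% interval that lay within 1.2-fold of the control in both directions, so for these a larger change lay outside the interval. These intervals hold for the deposited scaling only, since equal FPKM sums moved the median of all rows from 0.0063 to 0.14. The widest interval belonged to *Mrps6*, the weakest member, from −0.32 to 0.35. *Mrps15* had a log2 fold change of 0.35 with an interval from 0.063 to 0.65 (adjusted p = 0.0563, limma), and its control libraries lay far apart, at 62.0, 50.9 and 42.7 FPKM against 70.2, 64.4 and 62.4 FPKM. *Mrps12*, of the decoding centre, had 38.9, 35.1 and 31.4 FPKM against 35.0, 23.8 and 29.4 FPKM, and the conditions overlapped. *Mrps15* and *Mrps12* were singled out after their values were seen.

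Large and small subunit were compared next. Of 48 large subunit genes 9 rose and 14 fell, and of 28 small subunit genes 1 rose and 11 fell. That is 18.8% and 29.2% in the large and 3.57% and 39.3% in the small subunit, beside 23.7% and 32.8% of rows of similar level and 20.2% and 20.2% of all rows. These counts move with the processing. On leaving out single libraries, 4 to 8 large and 0 to 2 small subunit genes were higher. After quantile normalization 9 rose and 11 fell in the large and 4 rose and 8 fell in the small subunit. Counts with equal FPKM sums are given at the end. The median log2 fold change was −0.070 in the large and −0.13 in the small subunit. Without control replicate 1 the small subunit median was −0.078 and the difference between the medians 0.031 in place of 0.061, and no test of this difference was made. The large subunit summed to 4875, 4666 and 4549 FPKM with control siRNA and to 4595, 4529 and 4611 FPKM with *Xbp1* siRNA, and the conditions overlapped. The small subunit summed to 1999, 1934 and 1854 FPKM and to 1758, 1709 and 1743 FPKM, without overlap, and the mean was 90.0% of the control mean. These sums move with the FPKM total of the libraries, which was lower with *Xbp1* siRNA. As a share of that total, the small subunit took 0.300%, 0.295% and 0.287% with control siRNA and 0.294%, 0.288% and 0.290% with *Xbp1* siRNA, and the conditions overlapped. The large subunit took 0.732%, 0.712% and 0.703% against 0.769%, 0.763% and 0.767%, without overlap and now higher after silencing. All members together took 0.990% to 1.03% against 1.05% to 1.06%, at 105% of the control mean. Which subunit differs between the conditions therefore depends on the scaling.

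The ratio of the large to the small subunit sum does not depend on the scaling factor of a library. It was 2.44, 2.41 and 2.45 with control siRNA and 2.61, 2.65 and 2.64 with *Xbp1* siRNA, so the means were 2.44 ± 0.0207 (SD, n = 3) and 2.64 ± 0.0193 (SD, n = 3). The ratio was thus 108% of that with control siRNA and was 108% to 109% on leaving out single libraries. Its rise was not tested. A gene moves the ratio by its change as a share of the sum of its own subunit. Measured so, the largest changes that raised it were those of *Mrps18b* (−2.38% of the small subunit sum with control siRNA), *Mrps34* (−1.79%), *Mrps25* (−1.77%), *Mrps17* (−1.25%), *Mrps33* (−1.10%) and *Mrps7* (−1.01%), followed by *Mrpl33* with 0.961% and *Mrpl13* with 0.931% of the large subunit sum. The largest changes that lowered it were smaller, 0.884% for *Mrps21* and 0.715% for *Mrps15* in the small subunit and −0.672% for *Mrpl12* and −0.664% for *Mrpl57* in the large.

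**Figure D4:**
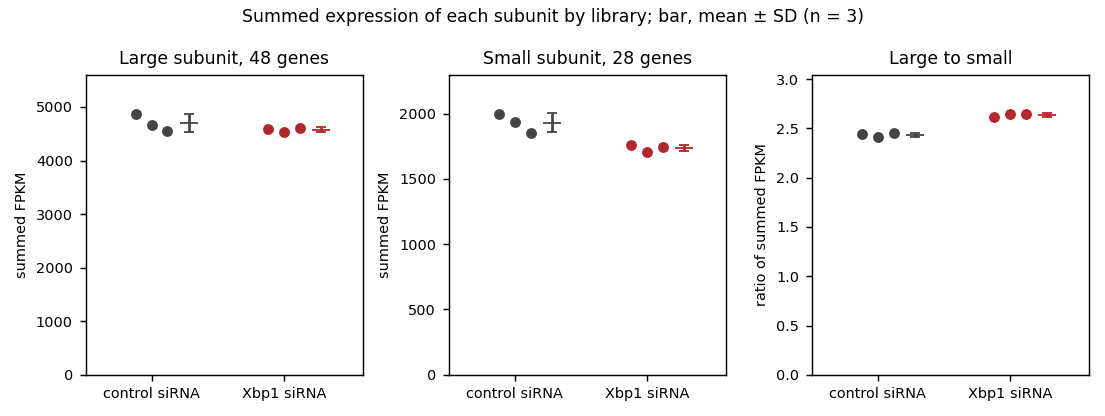
Summed FPKM of the 48 large subunit genes (left) and the 28 small subunit genes (middle), and the ratio of the sums (right), for each library with the mean ± SD of 3 libraries. On the deposited scaling the small subunit sum lies lower in each library with *Xbp1* siRNA, but its share of the library total overlaps between the conditions, whereas the ratio, which no scaling factor changes, lies higher.

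Genes were also grouped by the place of their proteins in the ribosome. The counts below stand beside 23.7% of rows of similar level higher and 32.8% lower, and 20.2% and 20.2% of all rows, and in groups this small they are descriptions only. The 5 genes of the stalk had log2 fold changes between −0.14 and −0.043, and 0 of them passed the test by limma, with 0 under an unadjusted p of 0.05. Of 7 proteins of the central protuberance, *Mrpl48* and *Mrpl38* fell while *Mrpl18* and *Mrpl40* rose, so that both directions occurred within 1 structure. Of 8 proteins around the exit tunnel, *Mrpl44* and *Mrpl24* fell and 0 rose by limma, where 3 had an unadjusted p under 0.05. Among 7 proteins along the mRNA channel and the decoding centre, *Mrps2* and *Mrps5* fell and *Mrps21* rose. *Mrpl24* and *Mrps5* were singled out after their values were seen. Large subunit proteins with a bacterial counterpart rose in 6 and fell in 7 of 29 genes, and those without one rose in 3 and fell in 7 of 19. In the small subunit, 1 rose and 5 fell of 16 genes with a counterpart, and 0 rose and 6 fell by limma of 10 without one, of which 7 had an unadjusted p under 0.05. *Mrps30* and *Mrps36*, which do not belong to the small subunit by structure, are left out of these 10. These shares were not tested against each other.

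The *Mrps18* genes encode 3 related proteins that occupy different sites. *Mrps18b* had 180, 162 and 158 FPKM with control siRNA and 117, 120 and 127 FPKM with *Xbp1* siRNA (log2 fold change −0.46, standard error 0.056, adjusted p = 5.46e-04, limma). *Mrps18c*, the counterpart of the bacterial protein, had 58.3, 58.1 and 58.9 FPKM against 64.4, 62.4 and 61.3 FPKM. Its libraries with *Xbp1* siRNA were the higher ones, and its adjusted p was 0.0557 (limma), and it passed with a pseudocount of 1, after quantile normalization and with equal sums. *Mrps18a* was listed at 0 in 5 of 6 libraries and not tested. Since the annotation behind the files is not known here, these zeros are not read as absence of the transcript. Symbols and structure do not agree for every member, since *Mrps30* and *Mrps18a* sit in the large subunit and *Mrps36* is now placed in the oxoglutarate dehydrogenase complex. *Mrps30* had 70.5, 68.6 and 68.4 FPKM against 69.7, 67.9 and 66.2 FPKM, with an interval of the log2 fold change from −0.11 to 0.058. With equal FPKM sums its log2 fold change was 0.11 (adjusted p = 0.0416, limma), in the other direction. *Mrps36* had 66.0 to 79.9 FPKM against 72.8 to 76.1 FPKM, and the conditions overlapped. With *Mrps30* counted as large and *Mrps36* left out, the ratio of the sums was 109% of the control.

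Proteins of the mitochondrial ribosome that carry other names showed both directions. *Dap3*, a GTP-binding protein of the small subunit, fell to 88.2% of the control mean (adjusted p = 0.00434, limma), and *Ptcd3*, a pentatricopeptide repeat protein at the mRNA entry, rose to 110% (adjusted p = 0.0469, limma). The other 3 tested did not pass. With these 5 added and *Mrps36* left out, 11 of 80 genes rose and 26 fell, beside 23.7% and 32.8% of rows of similar level and 20.2% and 20.2% of all rows. *Ict1* is an older name of *Mrpl58*.

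Genes that build or serve the ribosome were looked at by list, and their counts stand beside 20.2% of all rows higher and 20.2% lower. Of 26 assembly factors tested, 15.4% rose and 7.69% fell, so neither share exceeded that of all rows. By number 4 rose and 2 fell, with a median log2 fold change of 0.075, which was 0.040 without control replicate 2. The largest change was that of *Trub2*, a pseudouridine synthase that acts on mitochondrial RNA, which had 15.0, 13.9 and 13.7 FPKM with control siRNA and 9.20, 6.57 and 7.25 FPKM with *Xbp1* siRNA. It fell by 0.89 on the log2 scale (adjusted p = 0.00101, limma). *Ngrn*, which is needed for the ribosomal RNA of the large subunit, fell to 61.9% of the control mean (log2 fold change −0.69, adjusted p = 1.16e-04, limma). *Noa1*, a GTPase of small subunit assembly, rose to 137%, and *Gtpbp6*, at 7.43 FPKM with control siRNA, to 149%.

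Of 14 translation factors tested, 2 rose (14.3%) and 3 fell (21.4%). *Mtfmt*, which formylates the initiator methionyl-tRNA, had 24.3, 21.9 and 21.6 FPKM against 14.7, 14.5 and 15.9 FPKM (log2 fold change −0.58, adjusted p = 4.49e-04, limma). *Lrpprc*, which stabilises mitochondrial mRNAs, fell to 79.5% of the control mean, while the initiation factor gene *Mtif3* and the release factor gene *Mtrf1l* rose to 122% and 128%. Of 11 genes of mitochondrial transcription and RNA processing, 4 rose (36.4%) and 1 fell (9.09%). *Pnpt1*, *Mterf1* and *Tefm* rose to between 127% and 134%, and *Tfb2m*, which opens mitochondrial promoters with the RNA polymerase, fell to 84.0%. Of 8 regulators of nuclear genes for mitochondria, *Gabpa*, an ETS factor, fell to 82.5% (12.5% of the list), and the other 7 did not pass.

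Of 8 mitochondrial chaperones, proteases and stress response factors tested, 2 rose (25%) and 4 fell (50%), with a median log2 fold change of −0.20. Without the transcription factor genes *Atf5* and *Ddit3*, 2 of the remaining 6 rose and 2 fell, with a median of −0.045. *Hspd1*, the chaperonin of the matrix, had 624, 648 and 646 FPKM with control siRNA and 407, 438 and 428 FPKM after silencing, well apart (adjusted p = 2.28e-05, limma), and *Atf5* and *Ddit3* fell to 65.5% and 68.1% of the control mean. *Trap1*, a matrix chaperone of the same family as the cytosolic heat shock protein HSP90, rose to 130%. Of 74 rows with 72 symbols of cytosolic ribosomal proteins 1 rose and 48 fell, with a median of −0.15, and of 59 rows with 58 symbols of the respiratory chain and ATP synthase 5 rose and 17 fell, with a median of −0.076. *Rps2* was the cytosolic gene past both limits, at 34.8% of the control mean. The cytosolic list has a median level of 1503 FPKM against 68.9 FPKM for the mitochondrial ribosomal proteins. No test between these lists was made.

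**Figure D5:**
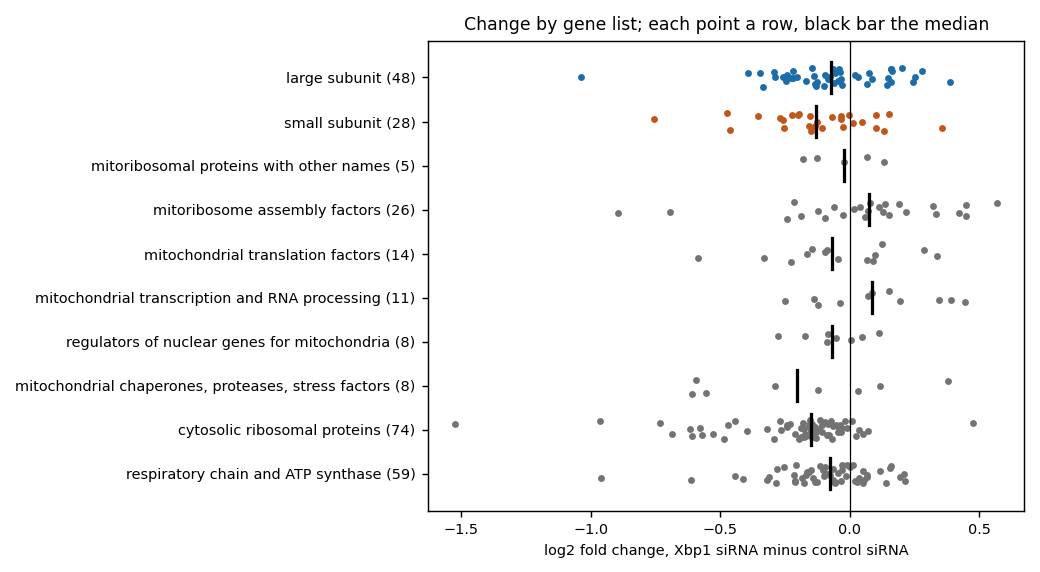
Log2 fold change (horizontal axis, *Xbp1* siRNA minus control siRNA) of each row in the 2 subunits, in 6 lists of other genes of mitochondrial translation, RNA, regulation and protein quality control and in 2 lists given for comparison, with the median as a black bar and the number tested in brackets. Medians lie between −0.20 for chaperones, proteases and stress factors (−0.045 without *Atf5* and *Ddit3*) and 0.085 for mitochondrial transcription and RNA processing (0.14 without control replicate 1). The respiratory chain list holds only *Nduf*, *Sdh* and *Atp5* genes.

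Neighbouring genes were looked up by order in a RefSeq table of the Chinese hamster (assembly CriGri-PICRH-1.0), which held 75 of the 76 members. The nearest coding gene was tested for 59 of them. Among 23 members that fell and had such a neighbour, 7 neighbours fell and 4 rose, and among 9 that rose, 3 neighbours rose and 0 fell by limma. Among 27 members that did not pass, 5 neighbours fell and 6 rose. Over all rows 20.2% fell and 20.2% rose, and no association between neighbours was tested or is read from these counts. *Mrps18b* and its neighbour *Ppp1r10* both fell, as did *Mrpl32* and *Psma2*, a proteasome subunit gene, whereas *Nr2c2*, whose span overlaps that of *Mrps25* in the table, had a log2 fold change of 0.049. The spans of 17 members overlapped that of the nearest coding gene, and how reads of overlapping genes or of pseudogene copies were divided between rows was not tested.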

How the data were processed

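Stranded mRNA libraries were sequenced, and the authors deposited FPKM values, 1 library per file. The submitters' processing notes list HISAT2 2.1.0 and Cuffdiff 2.2.1. Build and annotation are not given in the sources used here, and no coordinates are printed. FPKM values are not counts, so the DESeq2 test named in the study's methods was replaced by limma 3.58.1 (R 4.3.3). It was fitted to log2(FPKM + 0.1) with a mean-variance trend in the eBayes step, for 14361 rows with a mean FPKM of at least 0.1, with Benjamini-Hochberg adjustment over all of them. The fit was tested on simulated data. A stricter rule added the study's limit of 1 on the size of the log2 fold change. Groups were taken from the sample titles. No member's symbol is shared by several rows, as 159 other symbols are. Relative depth came from the most frequent ratio of values between libraries among rows with a mean of up to 0.8 FPKM. Absolute depth is unknown, so no counting intervals are given. Named genes are *Xbp1*, members past both limits, in each subunit and direction the 6 largest changes that passed, the 3 highest and 3 lowest levels of each subunit, the *Mrps18* family, *Mrps30*, *Mrps36*, and in each other list up to 4 genes that passed. The members and lists were chosen with earlier results of these data known. The level range of 20 to 500 FPKM, the neighbour lookup and the equal-sum scaling were chosen after the data were seen. Protein and promoter sequences were not used here. Other steps used Python 3.11.15, numpy 2.4.6 and pandas 2.3.3.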

Additional observations from a re-analysis of the deposited data

How the results depend on the processing

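Alternatives tried were a pseudocount of 1 or of 0.01, no level filter or one at 1 FPKM, scaling by median ratios, quantile normalization, eBayes without trend, shared symbols summed, the replicate number as a block, other subunit and member lists, equal FPKM sums and leaving out each library. Of 30 named members, 20 kept their side of an adjusted p of 0.05 (limma) under each alternative run on them, and 15 of these also kept their direction. The other 5, *Mrpl12*, *Mrpl58*, *Mrps28*, *Mrps36* and *Mrps6*, passed under none and took both signs. *Mrps30* also took both signs and, with equal sums, passed at 0.11. The search for promoter motifs was not run, since promoter sequences were not used here. *Mrps6*, the weakest member, had the widest interval among those that did not pass.

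Equal FPKM sums gave 4555 rows higher and 1869 lower, 21 members higher, 12 lower and 0 past both limits, 15 higher and 6 lower in the large and 6 and 6 in the small subunit, with medians of 0.046, 0.065 and 0.0037 for members, large and small subunit. The medians of the other lists then were 0.11 for ribosomal proteins with other names, 0.21 for assembly factors, 0.068 for translation factors, 0.22 for transcription and RNA processing, 0.065 for regulators and −0.069 for chaperones, proteases and stress factors, since this scaling moves every gene.

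After quantile normalization the medians were −0.021 for members, −0.00093 for the large subunit, 0.087 for large minus small, 0.14 for other names, −0.019 for translation factors, 0.20 for transcription and RNA processing, −0.019 for regulators and −0.055 for chaperones, proteases and stress factors. Then 4 small subunit genes were higher and the ratio of sums was 110% of the control. Counting subunits by structure gave 109%. The cause of these differences was not tested.

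A pseudocount of 1 gave 114 rows higher and 205 lower by both limits, no member (0) among them, and 2 small subunit genes higher. A filter at 1 FPKM gave 242 rows higher by both limits and 2 small subunit genes higher. Without trend, 4 members were higher, 4 of the large and 0 of the small subunit. With the replicate number as a block, 3 small subunit genes were higher and 11 members higher and 25 lower in all. Same-numbered libraries deviated from their group means with r from −0.029 to −0.012 across genes, so a number was not read as a pair.

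Leaving out each library gave medians from −0.12 to −0.052 for members, −0.15 to −0.078 for the small subunit, 0.031 to 0.061 for large minus small, −0.081 to −0.015 for translation factors (the latter without *Xbp1* siRNA replicate 3), 0.040 to 0.11 for assembly factors, −0.057 to 0.031 for ribosomal proteins with other names, 0.084 to 0.14 for transcription and RNA processing and −0.076 to −0.041 for regulators (the latter without *Xbp1* siRNA replicate 1), with 4 to 10 members, 4 to 8 large and 0 to 2 small subunit genes higher.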
